A study of Mus musculus with 12 samples.

Results

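Left ventricles of 3 transgenic mice given tamoxifen were compared with left ventricles of 3 non-transgenic littermates given tamoxifen, that is, 6 of the 12 arrays of the study. The arrays were chosen by their titles. The other 6 arrays, 3 transgenic and 3 non-transgenic hearts on vehicle, entered the fit for the estimate of spread and are given beside the results as the background without drug. All mice were male and of the C57BL6 strain, and every heart had an array of its own, so p-values measure the spread between these hearts.

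The transgenic mice (TG) carry ATF6-MER, a fusion of the transcription factor ATF6 with a mutated ligand-binding part of the estrogen receptor, and the non-transgenic mice (NTG) do not. The promoter that drives the transgene is not named in the labels. The published line of this name was built to express the fusion in heart muscle cells. Age was given as 30 weeks or about that for 11 mice and as 40 weeks for the mouse labelled TG tamoxifen 1. The array titled TG vehicle 3 has a treatment field that says tamoxifen, and its title was followed here.

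The array labelled NTG tamoxifen 1 goes against its label. Its probe set for Esr1, the estrogen receptor gene whose sequence the fusion carries, read 17.71 in log2 units, within the range of the transgenic hearts and not of the other non-transgenic ones. The main results are therefore given from a fit of all 12 arrays (the 12-array fit) and from a fit of the 11 arrays without that one (the 11-array fit), in which NTG tamoxifen 2 and 3 stand for the non-transgenic group. Where 1 value stands alone, its fit is named. Levels are log2 of the deposited intensity plus 16 after quantile normalisation. A difference is the mean of TG tamoxifen minus the mean of NTG tamoxifen in log2 units, given with its standard error, and a gene is said to have risen or fallen only where limma's Benjamini-Hochberg adjusted p was under 0.05.

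ATF6 is a membrane protein of the endoplasmic reticulum (ER). When unfolded proteins build up in the ER it moves to the Golgi, where proteases free its cytosolic part, which enters the nucleus and, together with the factor NF-Y, acts at ER stress response elements in the promoters of chaperone genes. In ATF6-MER the free cytosolic part is held inactive until tamoxifen binds the receptor part. Other branches of the unfolded protein response run through the kinase PERK, which raises translation of ATF4, and through IRE1, which splices Xbp1 mRNA. The title of the series names Rcan1, an inhibitor of the phosphatase calcineurin, as a gene linking ATF6 to growth of the heart.

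The ER stress response element (ERSE) was looked for in the RefSeq promoter windows (build GRCm38.p6) as CCAAT, any 9 bases, then CCACG, on both strands. Of 74 tested genes in the lists of ER chaperones, disulfide isomerases and degradation genes, 62 had a window, and 10 of these 62 windows held the element (16.1%). Among all 27025 genes with a window the share was 0.137%, and among the 9025 tested genes with a window it was 0.166%. The windows of 3 genes are shown because they carry the element and their genes are among those described below. Each line is the 250 bases before the RefSeq start site, 5′ to 3′ along the gene, with the element in capitals.
Hspa5: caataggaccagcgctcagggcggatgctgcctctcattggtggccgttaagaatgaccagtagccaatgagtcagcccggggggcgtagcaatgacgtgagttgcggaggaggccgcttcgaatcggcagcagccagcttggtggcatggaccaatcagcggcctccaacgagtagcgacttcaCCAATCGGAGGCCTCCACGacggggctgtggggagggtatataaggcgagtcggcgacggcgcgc
Hsp90b1: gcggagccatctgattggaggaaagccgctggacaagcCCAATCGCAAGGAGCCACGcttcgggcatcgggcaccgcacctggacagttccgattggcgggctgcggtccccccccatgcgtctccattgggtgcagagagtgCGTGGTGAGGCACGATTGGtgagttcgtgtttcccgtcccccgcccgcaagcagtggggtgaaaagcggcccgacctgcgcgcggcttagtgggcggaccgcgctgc
Derl3: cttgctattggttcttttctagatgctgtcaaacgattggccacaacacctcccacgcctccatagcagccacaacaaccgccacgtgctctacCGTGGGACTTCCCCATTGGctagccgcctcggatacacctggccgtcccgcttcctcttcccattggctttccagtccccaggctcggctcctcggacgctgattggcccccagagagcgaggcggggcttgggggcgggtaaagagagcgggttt
In Hspa5 the element lies on the gene's strand, 65 bases before the start site (chr2:34771840-34772089, plus strand). In Hsp90b1 (chr10:86705445-86705694, minus strand) there are 2 elements, at 212 bases on the gene's strand and at 107 bases on the opposite strand. In Derl3 (chr10:75893148-75893397, plus strand) the element is on the opposite strand at 156 bases, so it reads backwards, from CGTGG to ATTGG, in the line above.

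Read along the element's own strand, the sites of the 10 genes are given together because the 9 bases between the fixed ends differ from gene to gene. Capitals mark the fixed ends.
Calr: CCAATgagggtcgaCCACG
Canx: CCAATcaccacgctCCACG
Creld2: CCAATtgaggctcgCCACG
Derl3: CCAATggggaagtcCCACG
Dnajc3: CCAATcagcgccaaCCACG
Ero1b: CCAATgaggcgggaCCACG
Hsp90b1: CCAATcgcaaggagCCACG
Hsp90b1: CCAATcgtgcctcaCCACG
Hspa5: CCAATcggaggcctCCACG
Pdia6: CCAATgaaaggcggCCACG
Syvn1: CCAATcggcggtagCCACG
Of these 10 genes, 8 rose in the 12-array fit and 10 rose in the 11-array fit. Calr and Syvn1 were those called in the 11-array fit alone. Of the other 52 ER genes with a window, 17 rose in the 12-array fit and 23 in the 11-array fit. The genes of fatty acid oxidation, searched in the same way, held ERSE in 1 of 25 windows (4%). It was that of Acacb, which fell in both fits (-2.45 and -2.88). The related element ERSE-II, ATTGG, 1 base, then CCACG, was found in Dnajb11 (ATTGGcCCACG) and Herpud1 (ATTGGgCCACG), and both genes rose in both fits. The core TGACGTG of the unfolded protein response element was in 9.68% of the 62 windows, in 2.22% of all and in 3.27% of those of tested genes. Of the 6 ER genes with it, 2 rose in the 12-array fit, and 3 rose and 1 fell in the 11-array fit. Of the 56 ER genes without it, 23 rose in the 12-array fit and 30 in the 11-array fit. The short CCACG, which is also the end of each ERSE and ERSE-II, was in 72.6%, 35.5% and 51.6% in the same order. ERSE was found in 8 of the 1566 windows of genes that rose in both fits (0.511%). It was in 2 of the 1705 windows of genes that fell in both (0.117%). The 8 are the ER genes above that rose in both fits, so this share repeats the count above and is no separate result. Neither RefSeq window of Rcan1 held ERSE. These are matches of letters, not measured binding sites.

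Across 11165 genes tested, 4411 differed between TG tamoxifen and NTG tamoxifen in the 12-array fit, or 39.5%, of which 2116 were higher (19.0%) and 2295 lower (20.6%). In the 11-array fit 4785 differed (42.9%), 2337 higher (20.9%) and 2448 lower (21.9%). In 4021 genes the call was made in both fits in the same direction, and no gene was called in opposite directions. The 3 transgenic and 3 non-transgenic arrays did not overlap for 5695 genes (51.0%). With shares this high, a list in which about 1 in 5 genes was called in a direction stands at the background, and the median difference over all genes was -0.06 in the 12-array fit and -0.05 in the 11-array fit. How the calls split between directions depended on the scaling: 48.0% of calls were higher after quantile normalisation, 59.9% after centring each array on its median and 43.7% with the deposited scaling alone (12-array fit).

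On the first principal component (42.41% of the variance) the transgenic arrays stood between -61.6 and -57.2 and NTG tamoxifen 2 and 3 at 40.2 and 44.1, while the array labelled NTG tamoxifen 1 stood at -1.03, between the groups. The deposited median intensity was 648 to 765 on the transgenic arrays and 804 to 834 on the non-transgenic ones, without overlap (exact two-sided permutation p = 0.1, the smallest that 3 against 3 allows). The ratio of 3′ to 5′ signal for beta-actin, a measure of RNA quality, was 1.81 ± 0.067 and 1.89 ± 0.099 (SD, n = 3 each, exact permutation p = 0.3). The part of the lower median in the results was not tested beyond the other scalings.

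The transgene was read through Esr1. Its level was 16.66, 16.84 and 17.15 in TG tamoxifen and 17.71, 10.88 and 9.89 in NTG tamoxifen 1, 2 and 3. On vehicle the transgenic hearts averaged 18.03 and the non-transgenic hearts 7.71. All 6 transgenic arrays were thus high, all 3 non-transgenic vehicle arrays low, and the array labelled NTG tamoxifen 1 above every other non-transgenic array. The difference was 4.06 ± 1.49 (adjusted p = 0.0481) in the 12-array fit, a call lost on leaving out any 1 of the other 11 arrays (adjusted p up to 0.192), and 6.50 ± 0.44 in the 11-array fit. Because that array was left out for its reading on this very probe set, the 11-array value of Esr1 is a description and carries no test. The other probe sets of Esr1 read under 10 on all 6 tamoxifen arrays, so only 1 probe set showed the fusion.

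The probe set that stands for Atf6 was lower in the transgenic hearts, not higher. It read 12.11, 12.00 and 12.16 in TG tamoxifen and 12.67, 13.41 and 13.47 in NTG tamoxifen, without overlap. Atf6 fell by 1.10 ± 0.21 (adjusted p = 0.00201) in the 12-array fit and by 1.35 ± 0.15 (adjusted p = 0.000134) in the 11-array fit. The other probe sets of Atf6 differed by 0.17 and 0.04 in the 12-array fit and were not called. Whether any of them lies in the part of ATF6 that the fusion carries is not given in the sources used here.

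**Figure D1:**
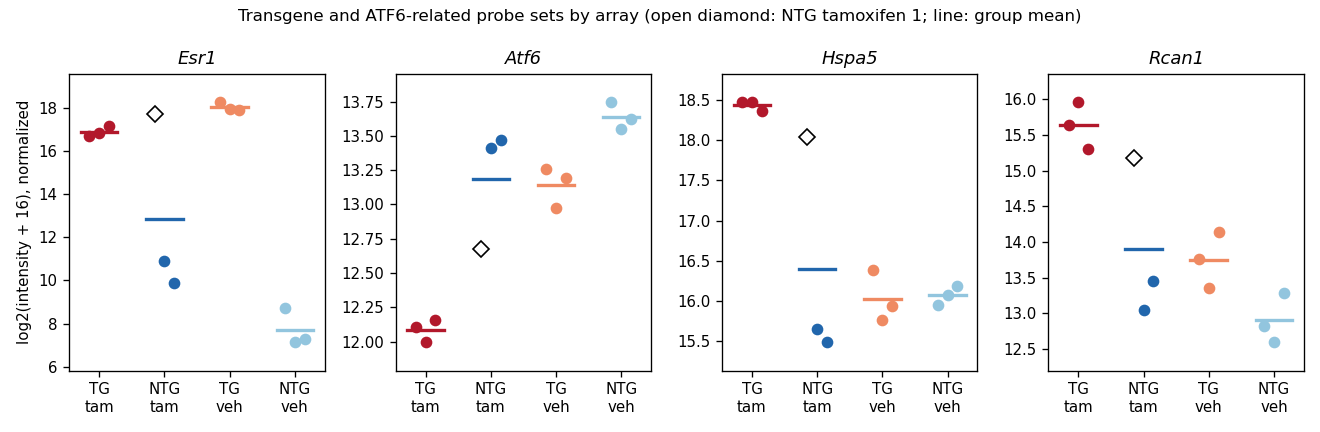
Level of Esr1, Atf6, Hspa5 and Rcan1, as log2 of intensity plus 16 after normalisation, in each of the 12 arrays by group (tam, tamoxifen; veh, vehicle). Each point is 1 heart, lines are group means and the open diamond is the array labelled NTG tamoxifen 1, which lies near the transgenic tamoxifen hearts for Esr1, Hspa5 and Rcan1 and between the groups for Atf6.

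ER chaperones rose in the transgenic hearts. Of 26 tested, 13 rose and 2 fell in the 12-array fit (median difference 0.82, against -0.06 for all genes), and 19 rose and 2 fell in the 11-array fit (median 1.22). Hspa5, which encodes BiP, the main HSP70 chaperone of the ER and the sensor partner of ATF6, read 18.47, 18.47 and 18.37 in TG tamoxifen and 18.05, 15.65 and 15.49 in NTG tamoxifen. On vehicle it averaged 16.03 in transgenic and 16.07 in non-transgenic hearts. The groups did not overlap, but the array labelled NTG tamoxifen 1 was 2.48 above the mean of its fellows. Hspa5 rose by 2.04 ± 0.52 (a fitted 4.12-fold, adjusted p = 0.00906) in the 12-array fit and by 2.87 ± 0.20 (7.31-fold, adjusted p = 1.11e-05) in the 11-array fit. With TG vehicle 3 grouped as TG tamoxifen the 12-array difference was 1.42 and not called (adjusted p = 0.143). The highest value on the normalised scale was 18.69, so the levels of Hspa5, and of Hsp90b1, Manf, P4hb, Nppb and Far1 given below, lie near its top, where signals may level off and differences be understated.

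Hsp90b1, which encodes GRP94, the HSP90 chaperone of the ER, read 18.11, 18.16 and 18.01 in TG tamoxifen and 17.73, 15.04 and 14.27 in NTG tamoxifen. It rose by 2.41 ± 0.63 (adjusted p = 0.0109) and, in the 11-array fit, by 3.44 ± 0.22 (adjusted p = 8.98e-06). Manf, a small secreted ER protein that binds BiP, read 18.08, 18.01 and 17.95 against 17.79, 13.49 and 14.16. Its difference was 2.87 ± 0.81 in the 12-array fit and 4.19 ± 0.27 in the 11-array fit. The same arrangement, with 3 high transgenic arrays, a high NTG tamoxifen 1 and low NTG tamoxifen 2 and 3, held for both genes.

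For several chaperones the array labelled NTG tamoxifen 1 read as high as the transgenic arrays or higher. Dnajb11, a J-domain partner of BiP, read 15.51, 15.49 and 15.45 in TG tamoxifen and 15.63, 11.77 and 11.47 in NTG tamoxifen. Sdf2l1, another partner of BiP and its J-domain proteins, read 15.31, 15.23 and 15.30 against 15.66, 10.38 and 10.85. Creld2, an ER-resident protein that stress induces, read 15.35, 15.15 and 15.14 against 15.46, 11.60 and 12.53. These genes rose in the 11-array fit by 3.86 ± 0.17, 4.67 ± 0.31 and 3.15 ± 0.27 (adjusted p = 2.81e-06, 9.04e-06 and 3.66e-05). In the 12-array fit they were also called, by 2.53, 2.98 and 2.02, but the calls of Dnajb11 and Sdf2l1 were lost on leaving out any 1 of the other 5 tamoxifen arrays (adjusted p up to 0.112 and 0.144), and that of Creld2 on leaving out any of 10 arrays (adjusted p up to 0.152). The call of Manf was lost without NTG tamoxifen 2 or without NTG tamoxifen 3 (adjusted p up to 0.0664).

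Dnajc3, which encodes a J-domain protein of the ER lumen, rose by 2.30 ± 0.53 and 3.14 ± 0.20 in the 12-array and 11-array fits, and Canx, the lectin chaperone calnexin, by 1.44 ± 0.24 and 1.74 ± 0.19. Calr, the soluble lectin chaperone calreticulin, read 17.24, 17.21 and 17.17 in TG tamoxifen and 17.74, 15.97 and 15.96 in NTG tamoxifen. Its difference was 0.65 ± 0.38 in the 12-array fit (adjusted p = 0.201), and it rose by 1.24 ± 0.17 in the 11-array fit (adjusted p = 0.000371). Cnpy2 fell in both fits (-0.68 and -0.74), Sil1, the nucleotide exchange factor of BiP, in the 12-array fit alone (-0.62), and Dnajc1 in the 11-array fit alone (-0.80), though with all probe sets of Dnajc1 averaged its difference was 0.02. The count of 13 chaperones that rose was 8 without NTG tamoxifen 2, 8 without NTG tamoxifen 3, and 4 where the array titled TG vehicle 3 was grouped by its treatment field as TG tamoxifen. The call of Sil1 rested on several single arrays (adjusted p up to 0.168), and that of Cnpy2 in the 11-array fit was lost without NTG tamoxifen 3 (adjusted p = 0.0679).

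Disulfide isomerases join and reshuffle the disulfide bonds of secreted proteins. Of 21 isomerases and oxidases tested, 7 rose and 1 fell (12-array fit), and 8 rose and 2 fell (11-array fit). Their median difference was 0.27 and 0.14, so the rises lay in a part of the family. Pdia4 read 15.22, 14.95 and 15.04 in TG tamoxifen and 15.07, 10.86 and 10.80 in NTG tamoxifen. It rose by 4.24 ± 0.27 (18.9-fold, adjusted p = 8.89e-06) in the 11-array fit and by 2.83 ± 0.87 (adjusted p = 0.0225) in the 12-array fit, a call lost on leaving out TG tamoxifen 1 or 3 or NTG tamoxifen 2 or 3 (adjusted p up to 0.0965).

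Pdia3, the isomerase that works with calnexin and calreticulin, rose by 1.84 ± 0.46 and 2.57 ± 0.18 in the 12-array and 11-array fits. Pdia6 rose by 2.12 ± 0.36 and 2.57 ± 0.27. P4hb, the protein disulfide isomerase itself, read 18.22, 18.03 and 17.98 against 18.38, 15.47 and 15.18. It rose by 2.75 ± 0.21 in the 11-array fit, while its 12-array call (1.73 ± 0.63, adjusted p = 0.046) was lost on leaving out any 1 of the other 11 arrays (adjusted p up to 0.181). Ero1b, an oxidase that recharges the isomerases, rose by 0.88 ± 0.20 and 1.10 ± 0.16. Selenom fell in both fits (-0.86 and -0.95) and Tmx2 in the 11-array fit (-0.69). The call of Tmx2 was lost without NTG tamoxifen 2 (adjusted p = 0.0722).

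ER-associated degradation returns misfolded proteins to the cytosol for the proteasome. Of 27 genes tested, 9 rose and 2 fell in the 12-array fit (median 0.29), and 13 rose and 1 fell in the 11-array fit (median 0.52). Derl3, a channel-like membrane protein of this pathway, read 15.27, 14.99 and 15.01 in TG tamoxifen and 15.47, 10.71 and 11.13 in NTG tamoxifen, with vehicle means of 11.11 and 10.70. It rose by 4.17 ± 0.31 (18-fold, adjusted p = 1.49e-05) in the 11-array fit. Its 12-array call (2.65 ± 0.93, adjusted p = 0.0405) was lost without any of 9 other arrays (adjusted p up to 0.155).

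The related Derl2 read 15.20, 15.02 and 15.05 against 15.03, 12.50 and 13.06 and rose by 1.56 ± 0.48 and 2.31 ± 0.22. Herpud1, which organises the degradation complex, rose by 1.23 ± 0.37 and 1.77 ± 0.22. Their 12-array calls were lost on leaving out any 1 of the other 5 tamoxifen arrays for Derl2, and on leaving out TG tamoxifen 1 or 3 or NTG tamoxifen 2 or 3 for Herpud1 (adjusted p up to 0.0889 and 0.0857). Sel1l, the scaffold of the ligase complex, and Syvn1, the ligase, were called in the 11-array fit alone, with rises of 1.84 ± 0.17 and 1.67 ± 0.27. Edem1 and Edem3, which trim the mannose of misfolded glycoproteins, rose in both fits, by 1.34 and 1.65 in the 12-array fit. Edem2 (-0.65) and Nploc4 (-0.91) fell in the 12-array fit alone, and Ube2j1 fell in the 11-array fit (-0.77), where averaging its probe sets gave 0.14. The count of 9 that rose was between 3 and 4 without TG tamoxifen 1, TG tamoxifen 3, NTG tamoxifen 2 or NTG tamoxifen 3. The 11-array call of Ube2j1 was lost without TG tamoxifen 2, NTG tamoxifen 2 or NTG tamoxifen 3, and the 12-array calls of Edem2 and Nploc4 without TG tamoxifen 3 or NTG tamoxifen 3, and that of Nploc4 also without TG tamoxifen 1 (adjusted p up to 0.101).

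Proteins enter the ER through the translocon and receive N-linked glycans there. Of 39 such genes tested, 16 rose and 3 fell in the 12-array fit (median 0.45), and 21 rose and 2 fell in the 11-array fit (median 0.54). Spcs3, a subunit of the signal peptidase, read 14.65, 14.69 and 14.47 in TG tamoxifen and 13.60, 12.69 and 12.66 in NTG tamoxifen, and rose by 1.62 ± 0.24 and 1.93 ± 0.17 (adjusted p = 0.000606 and 3.66e-05). Ssr3, of the translocon-associated complex, rose by 1.70 ± 0.37 and 2.25 ± 0.20, and Sec63, a J-domain protein of the translocon, by 1.79 ± 0.39 and 2.24 ± 0.34. Srp9, a subunit of the signal recognition particle, rose by 2.28 ± 0.34 and 2.44 ± 0.38, whereas Srp68 (-0.81 and -0.96) and Srp72 (-0.73 and -0.72) of the same particle fell. Its receptor subunit Srpr fell in the 12-array fit alone (-0.63). The 12-array call of Srpr was lost without TG tamoxifen 1 or 3 or NTG tamoxifen 3 (adjusted p up to 0.0887), and the 11-array call of Srp72 without TG tamoxifen 2 or 3 or NTG tamoxifen 2 or 3 (adjusted p up to 0.135).

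Of 33 genes of traffic between ER and Golgi tested, 6 rose and 5 fell in the 12-array fit, and 7 and 5 in the 11-array fit. These shares are near or under those over all genes, so they are no result about this group, and single members are given as values. Copz1, a coat subunit of retrograde vesicles, rose by 1.15 ± 0.31 and 1.60 ± 0.18. Kdelr1, the receptor that returns escaped chaperones to the ER, read 13.37, 13.14 and 13.14 against 14.45, 14.41 and 14.61 and fell by 1.27 ± 0.19 and by 1.29 ± 0.21, with the array labelled NTG tamoxifen 1 among its own group. The others that fell were Sec24c, Cope, Ergic3 and Lman1, of which Lman1 was at 0.12 in the 12-array fit when its probe sets were averaged. The 12-array call of Copz1 was lost without NTG tamoxifen 2 or 3 (adjusted p up to 0.0531) and that of Sec24c without any of 5 arrays (TG tamoxifen 1, 2 or 3, NTG tamoxifen 2 or NTG vehicle 3, adjusted p up to 0.106). In the 11-array fit the calls of Sec24c, Cope and Ergic3 were each lost without TG tamoxifen 2 or NTG tamoxifen 3, and in part without others (adjusted p up to 0.217).

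**Figure D2:**
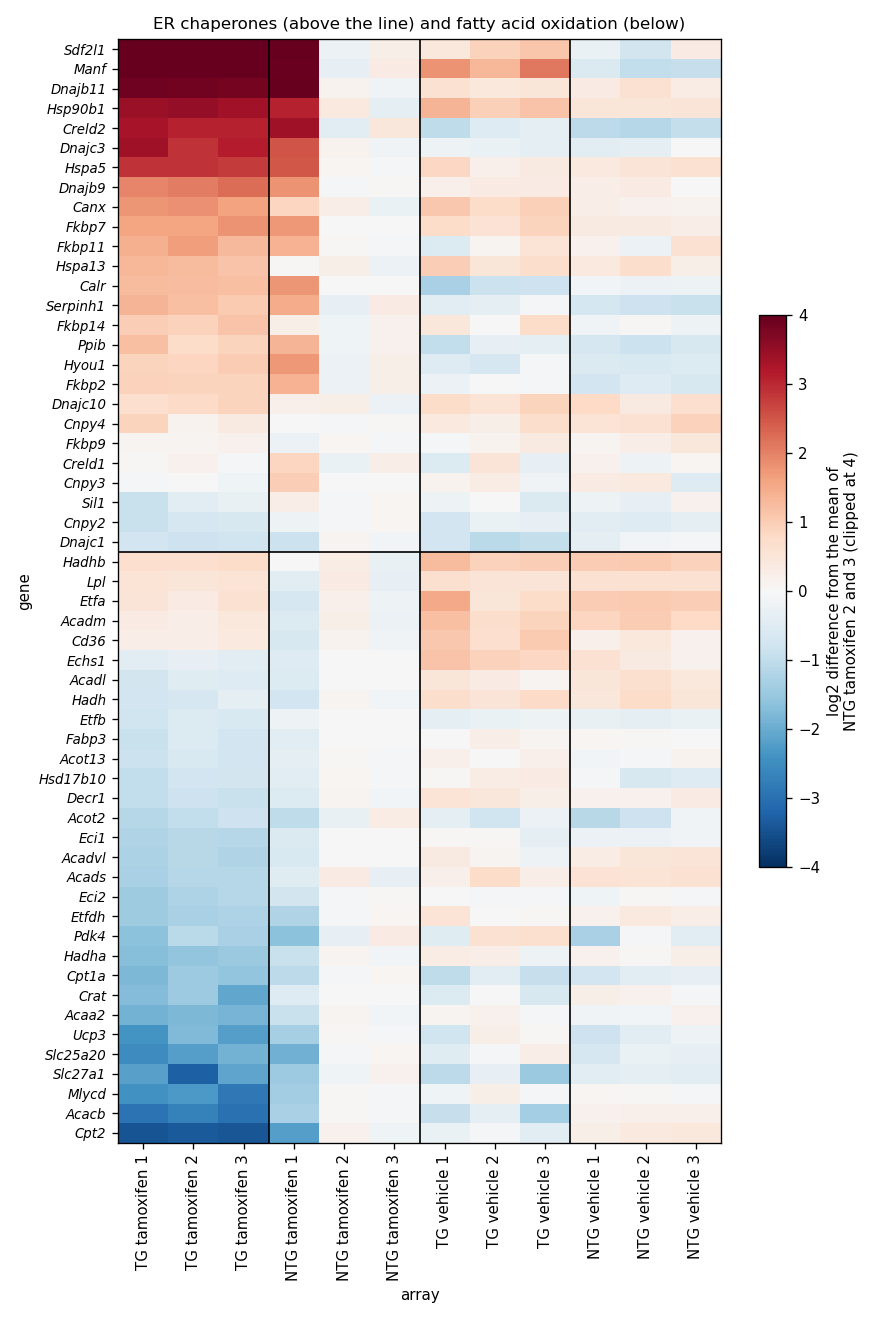
Log2 difference of each array from the mean of NTG tamoxifen 2 and 3, for the 26 tested ER chaperones (above the line) and 30 genes of fatty acid oxidation (below), on a colour scale clipped at 4 (red higher, blue lower). Most upper rows are red on TG tamoxifen 1 to 3 and on NTG tamoxifen 1 and paler on the 6 vehicle arrays, and most lower rows are blue on the transgenic tamoxifen arrays.

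Of the sensors and factors of the unfolded protein response, 6 of 21 rose and 3 fell in the 12-array fit, and 9 rose and 2 fell in the 11-array fit. Atf4, the factor that PERK signalling raises, read 15.75, 15.30 and 15.95 in TG tamoxifen and 13.99, 12.28 and 12.13 in NTG tamoxifen. It rose by 2.86 ± 0.42 and 3.46 ± 0.26 (adjusted p = 0.000581 and 1.54e-05). Ddit3, which encodes CHOP, rose by 2.51 ± 0.40 and 3.06 ± 0.27, and Atf3, a stress-induced factor, by 3.08 ± 0.67 and 3.94 ± 0.51. Eif2ak3, which encodes PERK, rose by 1.62 ± 0.28 and 1.96 ± 0.23.

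Xbp1 read 16.59, 16.61 and 16.72 in TG tamoxifen and 16.87, 14.81 and 15.30 in NTG tamoxifen. It rose in the 11-array fit (1.59 ± 0.19, adjusted p = 0.00018) and had a difference of 0.98 ± 0.40 in the 12-array fit (adjusted p = 0.069). Ern1, which encodes IRE1, differed by -0.35 ± 0.21 and -0.23 ± 0.23 and was called in neither fit. Besides Atf6, those that fell were Mbtps1, the Golgi protease that cleaves ATF6 (-0.49 and -0.58), and, in the 12-array fit alone, Creb3l1, another factor cleaved in the Golgi (-1.38). The 12-array call of Mbtps1 was lost without TG tamoxifen 1 or 3 or NTG tamoxifen 2 or 3 and its 11-array call without TG tamoxifen 3 or NTG tamoxifen 3, and that of Creb3l1 without TG tamoxifen 1 or NTG tamoxifen 3 (adjusted p up to 0.114).

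Of 21 amino acid genes downstream of ATF4, 6 rose and 4 fell in the 12-array fit (median 0.64), and 9 rose and 3 fell in the 11-array fit (median 0.64). Psat1, of serine synthesis, read 14.20, 13.82 and 13.73 against 13.57, 9.68 and 9.59. It rose by 2.97 ± 0.81 and 4.28 ± 0.27 (adjusted p = 0.0128 and 8.89e-06), the 12-array call being lost without NTG tamoxifen 2 or without NTG tamoxifen 3 (adjusted p up to 0.0576). Mthfd2, of mitochondrial folate metabolism, rose by 2.53 ± 0.56 and 3.38 ± 0.31. Asns, asparagine synthetase, read 13.12, 12.75 and 13.00 against 13.40, 10.79 and 10.81 and was called in the 11-array fit alone (2.16 ± 0.30). Ddit4, an inhibitor of mTORC1, went the other way (-1.98 ± 0.29 and -2.02 ± 0.34), as did Vldlr (-1.50 and -1.89), Stc2 (-0.90 and -0.98) and, in the 12-array fit, Cebpb (-0.75). Of 18 cytosolic aminoacyl-tRNA synthetases, 4 rose (Hars, Rars, Tars and Farsb, led by Tars at 1.18) and Kars fell in the 12-array fit. In the 11-array fit 6 rose and Kars fell. The 4 rises are near the share over all genes (19.0% higher in the 12-array fit), so they are no result about this family. The calls of Stc2 and Cebpb were lost on leaving out any of 6 or 7 single arrays in the 12-array fit (adjusted p up to 0.149), that of Stc2 without any of 9 in the 11-array fit (adjusted p up to 0.226), that of Kars without TG tamoxifen 3 (adjusted p = 0.0521), and in the 11-array fit those of Hars without NTG tamoxifen 2 and of Rars without NTG tamoxifen 3 (adjusted p = 0.0576 and 0.0557).

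Rcan1 rose. It read 15.64, 15.95 and 15.29 in TG tamoxifen and 15.17, 13.05 and 13.46 in NTG tamoxifen, and averaged 13.75 in transgenic and 12.90 in non-transgenic hearts on vehicle. The array labelled NTG tamoxifen 1 lay just under the lowest transgenic array. The difference was 1.74 ± 0.45 (3.33-fold, adjusted p = 0.0107) in the 12-array fit and 2.38 ± 0.29 (5.19-fold, adjusted p = 0.000192) in the 11-array fit. The other probe set of Rcan1 gave 2.77 and 3.59 (limma, adjusted p over all probe sets = 0.018 and 0.00156). With TG vehicle 3 grouped as TG tamoxifen the 12-array difference was 1.36 and not called (adjusted p = 0.0648).

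The rest of the calcineurin pathway was mixed. Calcineurin dephosphorylates NFAT factors, which with MEF2 factors drive growth genes of heart muscle. Of 20 genes tested, 3 rose and 7 fell in the 12-array fit (median -0.41), and 4 rose and 8 fell in the 11-array fit (median -0.41). Beside Rcan1, the catalytic subunit gene Ppp3ca rose by 1.87 ± 0.36 and 1.77 ± 0.41 and the regulatory subunit gene Ppp3r1 by 0.72 and 0.85. Cib1 rose in the 11-array fit alone (0.76), a direction that turned when its probe sets were averaged (-0.06). Without NTG tamoxifen 3 the 11-array call of Ppp3ca was lost (adjusted p = 0.0546), and that of Cib1 was lost without TG tamoxifen 1, NTG tamoxifen 2 or NTG tamoxifen 3.

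Mef2c read 12.45, 12.88 and 12.62 against 13.30, 14.60 and 14.67 and fell by 1.54 ± 0.33 and by 1.98 ± 0.23. Mef2d fell by 1.39 ± 0.24 and by 1.69 ± 0.18. The Rcan1 relatives Rcan2 and Rcan3 also fell (-0.81 and -0.63 in the 12-array fit), as did the subunit gene Ppp3cc (-1.0) and Nfatc3 (-0.58). With all arrays centred on their medians 4 of the list fell in the 12-array fit, and 3 fell with the probe sets of each gene averaged. The 12-array call of Rcan3 was lost without TG tamoxifen 2 (adjusted p = 0.0652) and that of Nfatc3 without TG tamoxifen 1 or 3 or NTG tamoxifen 2 or 3 (adjusted p up to 0.0712). The 11-array call of Rcan3 was lost on leaving out any 1 of the other 5 tamoxifen arrays.

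The 8 largest rises with all arrays were taken among genes whose groups did not overlap, which leaves out Esr1. Several of these genes, and of those that fell most, read under 9.42 in 1 of the groups, the log2 limit that a gene's mean had to pass for testing. Levels so low are uncertain, and so are the sizes and the order of differences that rest on them: this held for all 3 NTG tamoxifen arrays of Chml and Zfp979, 2 of Ccl2 and Ptx3 and 1 of Gadd45g. Chml and Zfp979 passed the filter on low levels through their values in TG tamoxifen. Over the other arrays they averaged 8.97 and 9.29, under the limit. Ccl2, a chemokine that draws monocytes, read 14.25, 13.95 and 14.13 in TG tamoxifen and 11.51, 6.92 and 7.63 in NTG tamoxifen, and rose by 5.42 ± 0.90 (adjusted p = 0.000992) and 6.84 ± 0.40 (adjusted p = 5.35e-06). Gadd45g, a stress-induced growth arrest gene, rose by 4.15 ± 0.59 and 4.49 ± 0.66, and Ptx3, a secreted pentraxin of innate immunity, by 4.10 ± 0.63 and 4.62 ± 0.65. On vehicle the averages of Ptx3 were 7.72 and 8.02, and NTG tamoxifen read 9.97, 8.60 and 8.24. Vehicle hearts of both genotypes read above NTG tamoxifen 2 and 3 for Ccl2 (9.84 and 9.67).

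Polr3k, an RNA polymerase III subunit, read 17.15, 16.94 and 17.06 in TG tamoxifen and 16.38, 11.57 and 11.05 in NTG tamoxifen. Far1, which makes fatty alcohols for ether lipids, read 17.90, 17.89 and 18.07 against 16.67, 12.94 and 12.59. For both genes the array labelled NTG tamoxifen 1 was within 1.5 of the transgenic arrays and the vehicle means of 11.54 to 12.54 were low. Polr3k rose by 4.05 ± 1.03 and 5.74 ± 0.33, and Far1 by 3.89 ± 0.83 and 5.19 ± 0.37.

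In the 3 remaining genes the non-transgenic tamoxifen hearts had the lowest mean of the 4 groups, and non-transgenic hearts on vehicle averaged near TG tamoxifen. Chml, a Rab escort protein, averaged 10.14 in NTG vehicle against 10.69 to 11.17 in TG tamoxifen, while NTG tamoxifen read 8.85, 5.45 and 6.40. Neat1, a long non-coding nuclear RNA, averaged 15.31 in NTG vehicle and 15.33 to 15.87 in TG tamoxifen, with NTG tamoxifen at 11.48, 11.71 and 12.12. Zfp979, a zinc finger gene, averaged 10.84 in NTG vehicle, with TG tamoxifen at 11.21, 11.01 and 9.49 and NTG tamoxifen at 6.10, 6.53 and 7.60. Transgenic hearts on vehicle averaged 9.86 for Chml, 13.53 for Neat1 and 10.29 for Zfp979, and for Neat1 2 of the 3 (12.80 and 12.53) lay nearer to NTG tamoxifen than to TG tamoxifen. These genes rose by 4.0, 3.83 and 3.83 in the 12-array fit and by 4.97, 3.69 and 3.50 in the 11-array fit.

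The largest falls with all arrays, again among genes without overlap, included genes of muscle and of metabolism. The transgenic levels of Fn3k, Klf15 and Flvcr2 were under the limit of 9.42 on all 3 arrays, and those of Asb10, Oplah and Mybpc2 on 2. Flvcr2 passed the filter on low levels through its values in NTG tamoxifen: over the other arrays it averaged 9.01. Fn3k, a kinase that removes sugars from glycated proteins, read 6.91, 6.17 and 7.57 in TG tamoxifen and 9.48, 11.84 and 12.42 in NTG tamoxifen and fell by 4.36 ± 0.60 and by 5.25 ± 0.34 (adjusted p = 0.000464 and 9.04e-06). Asb10, a muscle-expressed ankyrin and SOCS box gene, read 10.30, 8.52 and 9.36 against 12.47, 14.38 and 13.88 and fell by 4.18 ± 0.50 and by 4.74 ± 0.45. Slc25a34, a mitochondrial carrier, fell by 3.74 ± 0.80 and by 5.04 ± 0.25, and Oplah, which hydrolyses 5-oxoproline in glutathione turnover, by 3.56 ± 0.44 and by 4.07 ± 0.38. Here the vehicle means, 11.63 to 14.46 in both genotypes, were on the side of the non-transgenic tamoxifen hearts.

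Klf15, a factor of cardiac fuel use, read 9.03, 8.28 and 8.32 against 10.97, 12.59 and 12.56 and fell by 3.49 ± 0.40 and by 4.03 ± 0.29. Flvcr2, a membrane transporter, fell by 3.45 ± 0.48, Mybpc2, the fast myosin-binding protein C, by 3.31 ± 0.72 and Hhatl, an acyltransferase-like gene of muscle, by 3.12 ± 0.49 (12-array fit). Without the array labelled NTG tamoxifen 1 the falls were larger for Hhatl (-3.87 ± 0.23) and close to the same for Flvcr2 (-3.48 ± 0.57) and Mybpc2 (-3.63 ± 0.82). Flvcr2 is the gene of these in which NTG tamoxifen 1, at 10.92, lay between its fellows (11.34 and 10.67).

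Without the array labelled NTG tamoxifen 1, 8 further rises came up. Tk1, thymidine kinase of dividing cells, read 13.06, 12.03 and 13.09 against 12.41, 7.37 and 7.41 and rose by 5.34 ± 0.63 in the 11-array fit, with a 12-array call (3.66 ± 1.12, adjusted p = 0.0226) that was lost without TG tamoxifen 1 or 3 or NTG tamoxifen 2 or 3. Arntl, a core clock activator, rose by 4.71 ± 0.64, Ears2, the mitochondrial glutamyl-tRNA synthetase, by 4.31 ± 0.25, and Ube2c, a ubiquitin-conjugating enzyme of mitosis, by 4.47 ± 0.90. H2-Ea, an MHC class II gene, rose by 5.15 ± 1.50, a call lost without NTG tamoxifen 2 (adjusted p = 0.127). H2-Ea and Ube2c were not called in the 12-array fit (adjusted p = 0.0688 and 0.0851). NTG tamoxifen 2 and 3 read under the limit of 9.42 for Tk1, H2-Ea and Ears2, as 1 of them did for Arntl. The other 3 were Sdf2l1, Psat1 and Pdia4, described above.

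The 8 further falls of the 11-array fit were Ttll1, Pdlim4, Ccdc189, Fblim1, Usp2, Ky, Art1 and Cpt2, with differences from -4.22 (Ttll1) to -3.41 (Cpt2). All 8 fell in the 12-array fit too, by 2.67 to 3.10, and the call of Ccdc189 there was lost without NTG tamoxifen 3 (adjusted p = 0.0539). The probe set of Ttll1 may match several transcripts. Usp2, a deubiquitinase under clock control, read 12.11, 12.25 and 11.68 against 13.72, 15.44 and 15.66. For Pdlim4 and Ccdc189 the array labelled NTG tamoxifen 1 (8.89 and 8.70) lay inside the range of the transgenic arrays. For Pdlim4, Ccdc189 and Ky all 3 transgenic arrays were under the limit of 9.42.

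**Figure D3:**
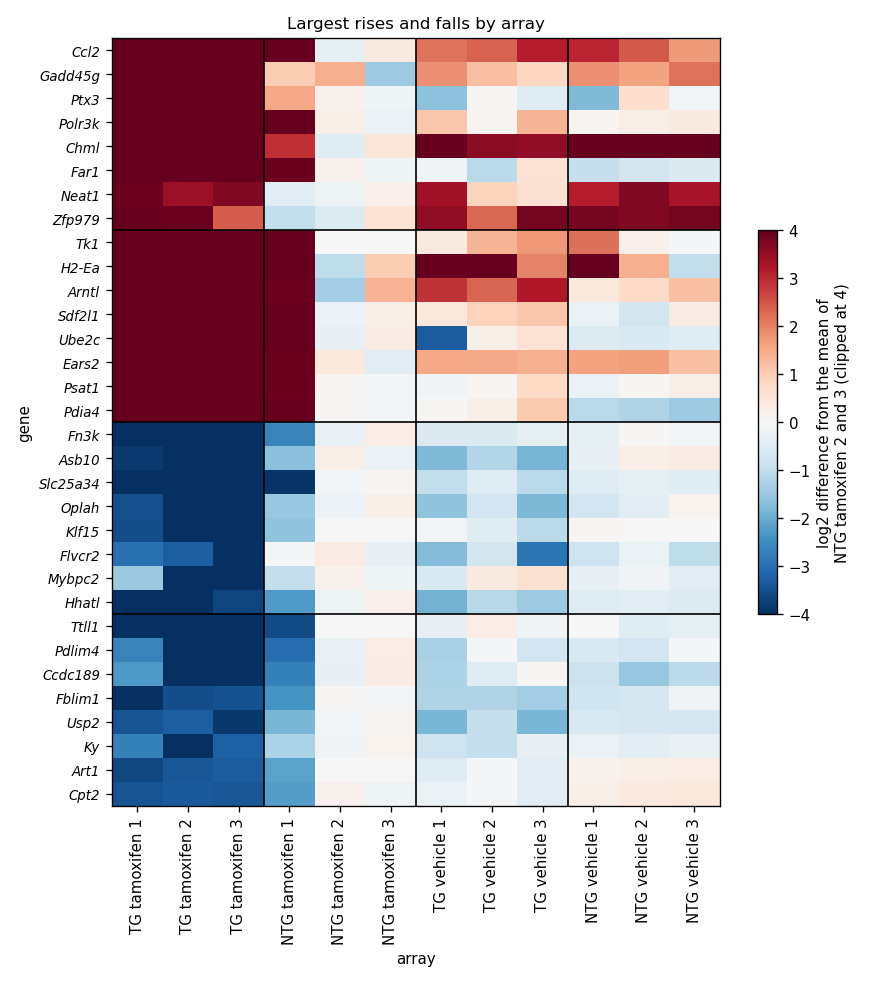
Log2 difference of each array from the mean of NTG tamoxifen 2 and 3 for the 32 genes with the largest rises and falls, in 4 blocks of 8 (rises with all arrays, further rises without NTG tamoxifen 1, falls with all arrays, further falls without it), on a colour scale clipped at 4 (red higher, blue lower). The array labelled NTG tamoxifen 1 is red like the transgenic tamoxifen arrays in the second block, and Chml, Neat1 and Zfp979 are red on the vehicle arrays as well.

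Fatty acid oxidation, the main fuel pathway of the adult heart, was lower in the transgenic hearts. Of 30 genes tested, 20 fell and 2 rose in the 12-array fit (median -0.85), and 24 fell and 2 rose in the 11-array fit (median -1.16). Cpt2, which hands long-chain acyl groups to the mitochondrial matrix, read 11.99, 12.07 and 12.02 in TG tamoxifen and 13.22, 15.61 and 15.25 in NTG tamoxifen, with vehicle means of 15.17 and 15.78. It fell by 2.67 ± 0.46 and by 3.41 ± 0.17 (adjusted p = 0.00122 and 3e-06).

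Mlycd, which removes the malonyl-CoA that blocks acyl entry, fell by 2.05 ± 0.33 and by 2.52 ± 0.20, and Acacb, which makes malonyl-CoA, by 2.45 ± 0.33 and by 2.88 ± 0.25. Slc27a1, a fatty acid transporter, fell by 2.04 ± 0.44 and by 2.52 ± 0.39, Hadha, the alpha subunit of the trifunctional enzyme, by 1.29 ± 0.24 and by 1.58 ± 0.19, and Cpt1a, an entry enzyme, by 1.26 ± 0.28 and by 1.61 ± 0.22. Acadm, the medium-chain dehydrogenase, was called in neither fit (0.52 ± 0.21 and 0.34 ± 0.20). The genes that rose were Hadhb, the beta subunit of the trifunctional enzyme (0.70 ± 0.17 and 0.69 ± 0.19), and Lpl, lipoprotein lipase (0.68 ± 0.19 and 0.53 ± 0.19), and with probe sets averaged the 11-array differences of both turned (-0.01 and -0.42). Where TG vehicle 3 was grouped as TG tamoxifen, 5 of the 30 fell in the 12-array fit. The 12-array call of Lpl was lost without NTG tamoxifen 3 (adjusted p = 0.0615) and its 11-array call without any of 9 arrays (adjusted p up to 0.435), and the 11-array call of Hadhb without NTG tamoxifen 3 (adjusted p = 0.147).

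Regulators of this fuel use fell together in both fits. Of 16 tested, 11 fell and none rose in the 12-array fit and in the 11-array fit (limma, medians -1.36 and -1.55). Ppara, the fatty acid receptor that drives these genes, read 11.73, 11.84 and 11.96 against 13.85, 14.87 and 14.71. It fell by 2.64 ± 0.26 and by 2.95 ± 0.21 (adjusted p = 0.000204 and 1.26e-05). Ppargc1a, the coactivator PGC-1 alpha, fell by 1.97 ± 0.38 and by 2.48 ± 0.26, Lpin1, a coactivator and lipid phosphatase, by 2.03 ± 0.24 and by 2.31 ± 0.19, and Esrra, the receptor ERR alpha, by 1.08 ± 0.18 and by 1.06 ± 0.20. Perm1, a muscle gene of the same circuit, fell by 2.13 in the 12-array fit.

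Oxidative phosphorylation was lower to a smaller degree: 20 of 41 genes fell and 3 rose in each fit (medians -0.34 and -0.37). The complex I subunit gene Ndufs8 read 16.28, 16.45 and 16.22 against 17.39, 17.69 and 17.76 and fell by 1.30 ± 0.17 and by 1.41 ± 0.16. Ndufb10 fell by 1.28 ± 0.20 and Uqcrc1, of complex III, by 0.98 ± 0.16. Cycs, Cox6c and Cox7c rose (0.49, 0.72 and 1.97 in the 12-array fit), and the call of each was lost in at least 1 fit on leaving out NTG tamoxifen 3. Cox7c read under the limit of 9.42 on all 3 NTG tamoxifen arrays and at most 11.14 on any array, so its size is uncertain. The 20 falls were 12 with arrays centred on their medians, 12 without TG tamoxifen 1 or without TG tamoxifen 2, and 11 without NTG tamoxifen 2. Cycs and Cox6c also lost their 12-array call without any 1 of TG tamoxifen 1, 2 and 3, and Cox6c its 11-array call without any of 8 arrays (adjusted p up to 0.429).

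In the TCA cycle and pyruvate entry 9 of 25 genes rose and 7 fell in the 12-array fit, and 9 rose and 9 fell in the 11-array fit. Ogdh, a subunit of the oxoglutarate dehydrogenase complex, fell by 1.46 ± 0.18 and Dlst of the same complex by 1.06 ± 0.16, whereas Dld, a subunit shared with other complexes, rose by 1.85 ± 0.28 and Pdha1, of pyruvate dehydrogenase, by 1.25 ± 0.27 (12-array fit). In NTG vehicle Dld averaged 14.83 and Pdha1 17.06, above NTG tamoxifen (13.03 to 13.84 and 15.33 to 16.21). Of 24 genes of glycolysis and glycogen, 14 fell and 5 rose in the 12-array fit, and 12 fell and 7 rose in the 11-array fit. The 11-array call of Pdha1 was lost without NTG tamoxifen 3 (adjusted p = 0.0539).

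Pfkm, the muscle phosphofructokinase, read 14.21, 14.32 and 14.32 against 15.53, 16.69 and 16.85 and fell by 2.07 ± 0.29 and by 2.49 ± 0.18. Pygm, muscle glycogen phosphorylase, fell by 2.41 ± 0.27 and the glucose transporter gene Slc2a4 by 1.62 ± 0.17, while Pgk1 rose by 1.73 ± 0.31, Gbe1, the glycogen branching enzyme, by 1.93 and Pfkp, the platelet form of phosphofructokinase, by 1.30 (12-array fit). Gyg and Phka1, of glycogen metabolism, rose too. In branched-chain amino acid breakdown 5 of 18 rose and 5 fell in the 12-array fit, and 6 rose and 7 fell in the 11-array fit. There Bckdha and Bckdhb, subunits of the committed step, fell (-1.30 and -0.80), and Acadsb and Aldh6a1, further down, rose (2.38 and 1.51), while in NTG vehicle Acadsb and Aldh6a1 averaged 13.34 and 14.68, close to TG tamoxifen. The others called in the 12-array fit were Ivd, Acad8 and Hibch, which rose, and Bcat2, Bckdk and Mmut, which fell, of which Mmut was at 0.44 with its probe sets averaged. The 12-array call of Ivd was lost without any of 8 arrays, that of Mmut without TG tamoxifen 1 or NTG tamoxifen 2 and that of Bcat2 without TG tamoxifen 3 or NTG tamoxifen 1 or 2 (adjusted p up to 0.175). In the 11-array fit that of Bckdha was lost without NTG tamoxifen 2 (adjusted p = 0.0607), and those of Ivd, Hibch and Mmut without TG tamoxifen 1 among others.

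Contraction and calcium handling were lower in several parts. Of 26 sarcomere and Z-disc genes, 11 fell and 3 rose in each fit (medians -0.19 and -0.26). Mybpc3, the cardiac myosin-binding protein C, read 15.74, 15.97 and 15.77 in TG tamoxifen and 17.07, 17.23 and 17.31 in NTG tamoxifen and fell by 1.37 ± 0.15 and by 1.44 ± 0.16. Tcap, the titin cap of the Z-disc, fell by 1.63 ± 0.39 and by 2.21 ± 0.21, and Myom1, of the M-band, by 1.39 ± 0.24 and by 1.69 ± 0.17. Lmod2, which lengthens thin filaments, fell by 1.73 ± 0.15 in the 11-array fit, its 12-array call being lost on leaving out any 1 of the other 5 tamoxifen arrays (adjusted p up to 0.124).

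Myh6, the main cardiac myosin, was near the top of the scale on all 6 arrays (18.41 to 18.63), and its difference of -0.16 ± 0.13 was not called. The sarcomere genes that rose were Csrp3, a stress-responsive Z-disc gene (0.74 ± 0.14), Pdlim5 (1.37 ± 0.21) and Synpo2l (1.07 ± 0.37, a call lost without any of 8 other arrays, and 1.57 ± 0.26 in the 11-array fit). Of 19 genes of calcium handling and ion channels none rose in either fit (limma), while 10 fell in the 12-array fit (median -0.62) and 11 in the 11-array fit (median -0.83). Jph2, which ties the surface membrane to the sarcoplasmic reticulum, read 13.24, 13.37 and 13.13 against 14.47, 14.79 and 14.77. It fell by 1.43 ± 0.16 and by 1.54 ± 0.16 (adjusted p = 0.000277 and 9.4e-05).

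Hrc, a calcium-binding protein of the same store, fell by 1.50 ± 0.17 and Kcnip2, a potassium channel subunit, by 1.64 ± 0.21 in the 12-array fit. Atp2a2, the calcium pump of that store, was between 18.31 and 18.41 on all 6 arrays (difference -0.07 ± 0.13, not called). The count of 10 falls was 6 without NTG tamoxifen 3 and 6 with arrays centred on their medians. Among 16 muscle ubiquitin ligases 10 fell and 3 rose in each fit (medians -0.76 and -0.82). Trim63 and Fbxo32, which encode MuRF1 and atrogin-1 of muscle wasting, fell by 0.90 ± 0.21 and by 0.76 ± 0.17, and Asb2 fell by 2.04 ± 0.27, while Fbxo30 rose by 1.88 ± 0.22 (12-array fit). Asb12 (0.58) and Mdm2 (0.67) also rose, with calls lost in both fits on leaving out some of the tamoxifen arrays (adjusted p up to 0.129).

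Of 17 genes of the fetal programme and of hypertrophy, 7 rose and 3 fell in the 12-array fit (median 0.58), and 8 rose and 3 fell in the 11-array fit (median 0.62). Fhl1, a LIM protein of stretch signalling, read 17.96, 17.93 and 17.84 against 16.53, 14.84 and 14.86 and rose by 2.50 ± 0.36 and 3.06 ± 0.14. Ankrd1, a stress-responsive titin partner, rose by 1.72 ± 0.40 and 2.29 ± 0.25. Nppb, which encodes the hormone BNP, read 18.21, 18.23 and 18.17 against 18.02, 15.53 and 16.51, with a rise of 2.18 ± 0.35 in the 11-array fit and a 12-array call (1.52 ± 0.50) lost on leaving out any 1 of the other 5 tamoxifen arrays (adjusted p up to 0.111). Ccn2, a matricellular growth factor, rose by 1.35 ± 0.27, and Timp1, an inhibitor of matrix proteases, by 2.00 ± 0.54 in the 12-array fit, and by 1.63 ± 0.24 and 2.63 ± 0.46 in the 11-array fit. Tgfb1 (-1.50), Nfkbia (-0.71) and Mybpc2 fell. Timp1 lost its 12-array call without NTG tamoxifen 3 (adjusted p = 0.0551). Myh7 and Acta1, contractile genes of the fetal programme, were not called in the 12-array fit. Over the arrays without NTG tamoxifen they averaged 15.591 and 15.735. Over those without TG tamoxifen the averages were 15.641 and 15.963, so neither was higher in TG tamoxifen.

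**Figure D4:**
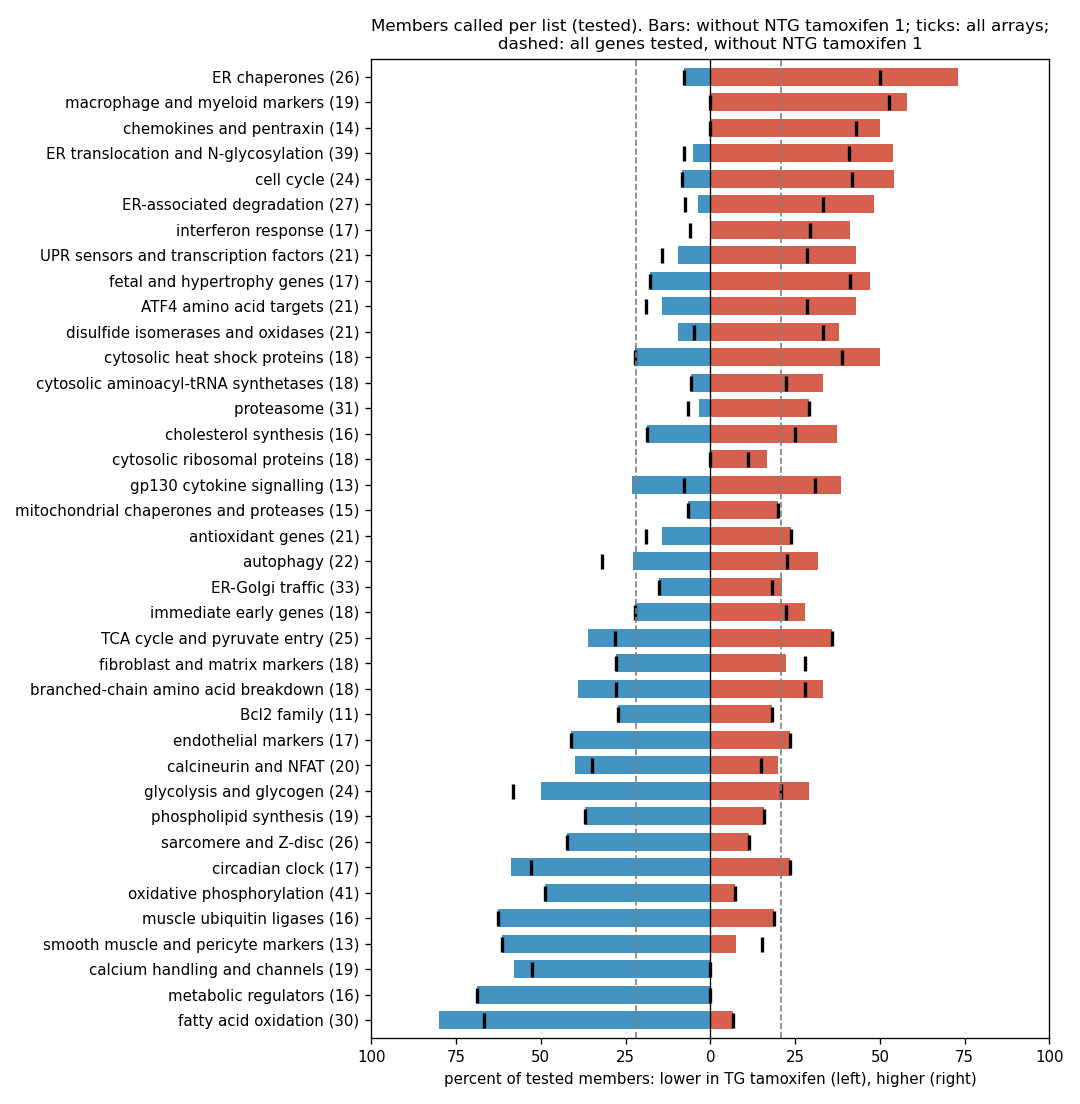
Percent of tested members called lower (left) or higher (right) in TG tamoxifen for each list with 10 or more genes tested. Bars are the 11-array fit, ticks the 12-array fit and dashed lines the shares over all genes in the 11-array fit (20.9% higher and 21.9% lower). ER chaperones extend to the right, with 19 of 26 higher, and fatty acid oxidation to the left, with 24 of 30 lower.

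Circadian clock genes were shifted in opposite directions. In the clock, Arntl and Clock activate transcription of Per, Cry, Nr1d and PAR bZIP genes. Of 17 tested, 4 rose and 9 fell in the 12-array fit, and 4 rose and 10 fell in the 11-array fit. The 4 were Arntl, Clock, Cry1 and Nfil3. Arntl read 13.77, 13.14 and 13.93 in TG tamoxifen and 12.85, 7.53 and 10.29 in NTG tamoxifen and rose by 3.39 ± 0.94 in the 12-array fit and by 4.71 ± 0.64 in the 11-array fit. The 11-array call of Clock was lost without NTG tamoxifen 2 (adjusted p = 0.0507).

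Dbp, a PAR bZIP output factor, read 12.21, 12.55 and 12.73 against 13.57, 15.31 and 15.76 and fell by 2.38 ± 0.55 and by 3.04 ± 0.46. Hlf fell by 2.54 ± 0.43 and by 3.15 ± 0.26, Per2 by 2.36 ± 0.39 and by 2.64 ± 0.41, and Ciart by 1.68 ± 0.42 and by 2.29 ± 0.23. Transgenic hearts on vehicle also averaged below non-transgenic ones for Dbp (13.37 and 15.27) and Ciart (10.64 and 12.46). The time of day at which hearts were taken is not given in the sources used here.

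Chemokines and the pentraxin Ptx3 had 6 of 14 genes higher and none lower in the 12-array fit (limma, median 0.85), and 7 higher and none lower in the 11-array fit (median 1.02). Ccl7, another chemokine for monocytes, read 13.64, 13.32 and 13.32 in TG tamoxifen and 11.51, 10.04 and 9.10 in NTG tamoxifen and rose by 3.21 ± 0.60 and 3.86 ± 0.54. Ccl12 rose by 2.60 ± 0.48 and 3.13 ± 0.43, and Ccl6 by 1.94 ± 0.41 and 2.46 ± 0.31. Ptx3 and Ccl2 passed the filter on low levels through their values in TG tamoxifen: over the other 9 arrays they averaged 8.23 and 9.40, under the limit of 9.42 in log2 units. In gp130 signalling, the route of interleukin-6 and related cytokines, Socs3, its feedback inhibitor, read 15.37, 14.70 and 15.12 against 13.50, 11.83 and 11.77 and rose by 2.70 ± 0.41 and 3.26 ± 0.28. The oncostatin M receptor gene Osmr rose by 1.41 ± 0.24, the kinase gene Jak2 by 0.79 and Bcl3 by 1.05 in the 12-array fit, the latter call being lost in either fit without any of 8 arrays (adjusted p up to 0.428), and the ligand gene Ctf1 fell by 1.37 ± 0.24.

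Of 18 immediate early genes, 4 rose (Fos, Fosl2, Ier3 and Klf6) and 4 fell (Jund, Klf2, Dusp1 and Zfp36) in the 12-array fit. These counts are near the shares over all genes (19.0% higher and 20.6% lower), so they are no result about this group. Between 1 and 2 rose on leaving out TG tamoxifen 1 or 3 or NTG tamoxifen 2 or 3. Fos differed by 1.89 ± 0.57 and 2.54 ± 0.49, and Dusp1, a phosphatase that turns off MAP kinases, fell by 1.40 ± 0.23 and by 1.68 ± 0.17. Of 17 interferon response genes, 5 rose (Ifit1, Ifit2, Stat2, Oas2 and Rsad2) and Irf7 fell in the 12-array fit, and 7 rose in the 11-array fit. Ifit2 rose by 3.26 ± 0.64 and 4.13 ± 0.45, but NTG vehicle hearts averaged 10.97, nearer to TG tamoxifen (11.71 to 12.12) than NTG tamoxifen 2 and 3 were (8.22 and 7.43). The 12-array calls of Fos, Fosl2 and Ier3 were each lost without TG tamoxifen 1 or 3 or NTG tamoxifen 2, that of Zfp36 without TG tamoxifen 3 or NTG tamoxifen 2, that of Rsad2 on leaving out any 1 of the other 5 tamoxifen arrays and that of Irf7 without any of 9 arrays (adjusted p up to 0.161). In the 11-array fit those of Klf6, Jund, Klf2, Oas2 and Fosl2 were lost without NTG tamoxifen 3 (adjusted p up to 0.15).

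In the cell cycle list 10 of 24 genes rose and 2 fell in the 12-array fit (median 0.81), and 13 rose and 2 fell in the 11-array fit (median 0.93). Pcna, the sliding clamp of DNA replication, read 14.98, 14.72 and 14.78 against 13.76, 12.99 and 13.00 and rose by 1.58 ± 0.22 and 1.83 ± 0.17. Top2a, a topoisomerase of dividing cells, rose by 1.44 in the 12-array fit. Tk1, Top2a, Ccna2 and Nusap1 passed the filter on low levels through their values in TG tamoxifen. Over the other arrays they averaged 8.60, 9.36, 9.35 and 9.41, under the limit of 9.42. Mki67, Cdk1 and Plk1, among other members, were on the array but too dim to be tested. The counts and medians of this list are thus tilted to genes high in TG tamoxifen. The list also holds growth arrest genes, among them Cdkn1a, Gadd45a and Gadd45g, of which Gadd45g rose as described above. Its rises are thus not those of genes of cell division alone. The cyclin D genes Ccnd2 and Ccnd3 fell, Ccnd2 by 2.10 ± 0.30 and by 2.49 ± 0.22. The 10 rises were 4 without NTG tamoxifen 3, 5 without TG tamoxifen 1 and 6 without NTG tamoxifen 2. The 11-array call of Top2a was lost without NTG tamoxifen 3 (adjusted p = 0.0518).

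Markers of the cells of the heart were read beside these results, and in whole ventricle more or fewer cells of a type cannot be told apart from more or less RNA per cell. Heart muscle markers were abundant on all arrays: the log2 of their summed level was 20.9 in TG tamoxifen and 21 to 21.1 in NTG tamoxifen. Of 8, Tnni3 (-0.38) and Nkx2-5 (-1.05) fell in the 12-array fit, and Ryr2 as well in the 11-array fit (-1.01), and the calls of Tnni3 were lost on leaving out any of 8 arrays and, in the 11-array fit, that of Nkx2-5 any of 5. All 7 skeletal muscle markers on the array were under the intensity limit for testing. Of the atrial markers 4 were tested and none was called in the 12-array fit, with Myl4 lower in the 11-array fit. The call of Myl4 was lost without NTG tamoxifen 2 (adjusted p = 0.0688).

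Macrophage and myeloid markers were higher in number: 10 of 19 rose and none fell in the 12-array fit (limma, median 0.90), and 11 rose and none fell in the 11-array fit. The log2 of their summed level was 17.4 to 17.9 in TG tamoxifen and 16.5 to 16.6 in NTG tamoxifen, without overlap. Ptprc, the pan-leukocyte CD45, read 12.72, 11.94 and 12.17 against 10.25, 10.25 and 10.28, with vehicle means of 10.87 and 10.77, and rose by 2.02 ± 0.25 and 2.02 ± 0.28. Ctss, a lysosomal protease of myeloid cells, rose by 2.22 ± 0.28 and 2.25 ± 0.32, Lyz2, lysozyme, by 2.63 ± 0.39 and 2.87 ± 0.42, and Mrc1, the mannose receptor, by 1.56 ± 0.20 and 1.72 ± 0.19, while Adgre1, a macrophage surface receptor, was called in neither fit (0.44 ± 0.21 and 0.40 ± 0.23). The complement genes C1qa, C1qb and C1qc of the same list were not called in the 12-array fit. Over the arrays without NTG tamoxifen they averaged 13.18, 12.92 and 12.74. Over those without TG tamoxifen the averages were 13.46, 12.93 and 12.76, so none of them was higher in TG tamoxifen. For Ptprc the array labelled NTG tamoxifen 1 read as the rest of its own group. Averaged over the list, the log2 level was 12.53 to 12.93 in TG tamoxifen and 11.63, 12.44 and 12.35 in transgenic hearts on vehicle, 2 of which came close to TG tamoxifen, against 11.57 to 11.84 in NTG tamoxifen and 11.67 to 11.90 in NTG vehicle. The part of these cells in the rises of chemokines and other genes was not tested.

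Of 13 smooth muscle and pericyte markers, 8 fell in each fit (medians -1.12 and -1.24). Myocd, the coactivator of smooth muscle and heart genes, read 12.50, 12.50 and 12.56 against 13.89, 15.27 and 14.55 and fell by 2.05 ± 0.30, Smtn fell by 1.90 ± 0.28 and Notch3 by 1.64 ± 0.19 (12-array fit). Rgs5, of pericytes, rose in both fits (1.09 ± 0.30 and 1.05 ± 0.34) and Mcam in the 12-array fit alone (2.47 ± 0.81), and both calls were lost without NTG tamoxifen 3, that of Rgs5 in the 11-array fit also without TG tamoxifen 1, 2 or 3 (adjusted p up to 0.33). Mcam passed the filter on low levels through its values in TG tamoxifen: over the other arrays it averaged 9.27, under the limit of 9.42. The log2 of the summed level of this list was 17.8 to 18 in TG tamoxifen and 18 to 18.3 in NTG tamoxifen. Averaged over the list, the log2 level was 12.45 to 12.61 in TG tamoxifen and 12.61 to 12.89 in transgenic hearts on vehicle, against 12.87 to 13.51 in NTG tamoxifen and 13.63 to 13.71 in NTG vehicle, so transgenic hearts without tamoxifen were low as well.

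Of 17 endothelial markers, 7 fell and 4 rose in each fit. Tie1 fell by 1.56 ± 0.19, Ramp2 by 1.43 ± 0.26 and Flt1 by 1.45 ± 0.27, whereas Erg (1.11), Fabp4 (0.89), Cldn5 (0.83) and Ets1 (0.81) rose and Pecam1 was not called (0.27 ± 0.18, 12-array fit). Of 18 fibroblast and matrix markers, 5 rose (Lum, Postn, Fn1, Dpt and Fap) and 5 fell (Col6a1, Thy1, Mmp2, Timp2 and Loxl1) in the 12-array fit. Lum, a matrix proteoglycan, rose by 2.23 ± 0.20, but averaged 13.75 in NTG vehicle against 14.02 to 14.37 in TG tamoxifen and 11.64 to 12.18 in NTG tamoxifen. Of the 3 neutrophil, 2 lymphocyte, 3 erythroid and 3 Schwann and neuronal markers tested, none was called in the 12-array fit, and Ngp was lower in the 11-array fit. Of 2 adipocyte markers Cidea fell. Without NTG tamoxifen 3 the 11-array calls of Erg and Fabp4 were lost (adjusted p = 0.0754 and 0.117), as was that of Mmp2 without NTG tamoxifen 2 and that of Ngp without any of 6 arrays. In the 12-array fit those of Fn1, Thy1, Loxl1 and Dpt were each lost without NTG tamoxifen 3 and at least 1 other array (adjusted p up to 0.11).

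Most of the remaining lists were closer to the background or divided. Of 31 proteasome genes, 9 rose and 2 fell (Psmd3 and Psmd4) in the 12-array fit, with Psmd14, the deubiquitinase of its lid, at 2.05 ± 0.26. Of 18 ribosomal protein genes, Rpl4 and Rpl6 rose (0.96 and 0.40), the call of Rpl6 being lost without any of 8 arrays in the 12-array fit and any of 4 in the 11-array fit. Of 18 cytosolic heat shock genes, 7 rose and 4 fell (Hspb7, Hspb8, Dnajb5 and Bag3) in the 12-array fit (median 0.50). In the 11-array fit 9 rose and 4 fell (median 0.64). The rises were above the shares over all genes, 19.0% higher in the 12-array fit and 20.9% in the 11-array fit. Hsp90aa1, the inducible cytosolic HSP90, rose by 2.26 ± 0.39, and Hspa1b, the inducible HSP70, read 14.10, 14.05 and 13.93 against 11.32, 10.63 and 10.67 and rose by 3.15 ± 0.89. Averaged over the heat shock list, TG vehicle 1 read 15.25, above the 14.94 to 15.01 of TG tamoxifen, while TG vehicle 2 and 3 read 14.35 and 14.52 and NTG vehicle 14.28 to 14.32. Psmd4 lost its 12-array call without any of 6 arrays (adjusted p up to 0.105), and the 11-array call of Hspa1b without TG tamoxifen 1 or NTG tamoxifen 2 or 3 (adjusted p up to 0.0924).

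Of 21 antioxidant genes 5 rose and 4 fell (Keap1, Txn2, Txnrd2 and Prdx2) in the 12-array fit, with Hmox1, heme oxygenase, at 3.35 ± 0.77, Cat, catalase, at 1.86 ± 0.37 and Txnrd1 at 1.63 ± 0.33 (4.23 ± 0.67, 2.40 ± 0.21 and 2.08 ± 0.21 in the 11-array fit). The others that rose were Gclc and Txn1, and Txn1 was at -0.20 with its probe sets averaged. Of 16 genes of cholesterol synthesis 4 rose (Hmgcs1, Idi1, Insig2 and Sc5d) and 3 fell (Srebf1, Srebf2 and Scap) in the 12-array fit, with Idi1 at 3.01 ± 0.65 (3.94 ± 0.41 in the 11-array fit) and the regulator gene Scap at -1.78 ± 0.44. The 11-array difference of Sc5d turned when its probe sets were averaged. Of 19 genes of phospholipid synthesis 3 rose (Chka, Cept1 and Crls1) and 7 fell in each fit, with Chka, choline kinase, at 1.94 ± 0.46 and Agpat2 at -1.75 ± 0.31 (12-array fit, and 2.62 ± 0.24 and -1.93 ± 0.34 in the 11-array fit). Single arrays also ended the 12-array calls of Keap1 and Gclc (TG tamoxifen 2 among others), Txn2 (TG tamoxifen 1), Txnrd2 and Srebf2 (NTG tamoxifen 3), Sc5d (9 arrays), Cept1 (TG tamoxifen 1 or 3 or NTG tamoxifen 2) and Crls1 (any of the other 5 tamoxifen arrays), with adjusted p up to 0.148. Without NTG tamoxifen 3 the 11-array calls of Scap, Cept1, Srebf2, Gclc and Txn2 were lost, each also without at least 1 other array (adjusted p up to 0.261).

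Of 15 mitochondrial chaperones and proteases Hspa9, Hspd1 and Yme1l1 rose (1.15, 1.14 and 1.13) and Clpp fell (-1.12), in both fits. Of 22 autophagy genes 5 rose (Atg3, Atg12, Gabarapl2, Lamp2 and Ctsl) and 7 fell in the 12-array fit, and 7 rose and 5 fell in the 11-array fit, with Atg3 at 1.39 ± 0.22 and Ulk1, the initiating kinase, at -1.19 ± 0.20. Ctsl turned to -0.33 when its probe sets were averaged. Of 11 genes of the Bcl2 family Bbc3 and Casp12 rose (0.92 and 1.41) and Bcl2l11, which encodes BIM, fell by 1.22 ± 0.29, along with Bak1 (-1.18) and Bcl2l1 (-0.49) in the 12-array fit. The 11-array difference of Bak1 was 0.01 with its probe sets averaged. The 12-array calls of Bbc3 and Bcl2l1 were each lost without any 1 of TG tamoxifen 1, 2 and 3, and that of Ctsl without TG tamoxifen 1 or 3 or NTG tamoxifen 2 or 3 (adjusted p up to 0.0992). The 11-array calls of Hspd1 and Bak1 were lost without NTG tamoxifen 3.

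The place of the array labelled NTG tamoxifen 1 between the groups is given for each list. For genes called in the 11-array fit with a change over 2-fold, its level was placed on a scale where the mean of NTG tamoxifen 2 and 3 is 0 and the mean of TG tamoxifen is 1. The median place was 0.37 for the 1445 genes that were higher and 0.35 for the 1391 that were lower. It was 0.97 for 10 genes of ER-associated degradation, 0.95 for 15 ER chaperones and 0.75 for 9 amino acid genes downstream of ATF4, so for these groups the array was close to the transgenic level. It was 0.56 for 16 genes of fatty acid oxidation and 0.56 for 6 of the calcineurin list.

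At the other end it was 0.26 for 10 myeloid markers, 0.26 for 11 sarcomere genes and 0.15 for 4 endothelial markers. On the same scale the non-transgenic vehicle arrays stood between 0.06 and 0.09 for ER chaperones and the transgenic vehicle arrays between 0.11 and 0.24. Over all genes the non-transgenic vehicle arrays stood between 0.35 and 0.39 for the genes that were higher and between 0.16 and 0.18 for those that were lower. The transgenic vehicle arrays 1, 2 and 3 stood at 0.59, 0.35 and 0.52 for the genes that were higher and at 0.49, 0.25 and 0.44 for those that were lower, so 2 of them lay nearer to TG tamoxifen than the array labelled NTG tamoxifen 1 did. These places are descriptions of 1 array, and why it reads as it does was not tested.

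**Figure D5:**
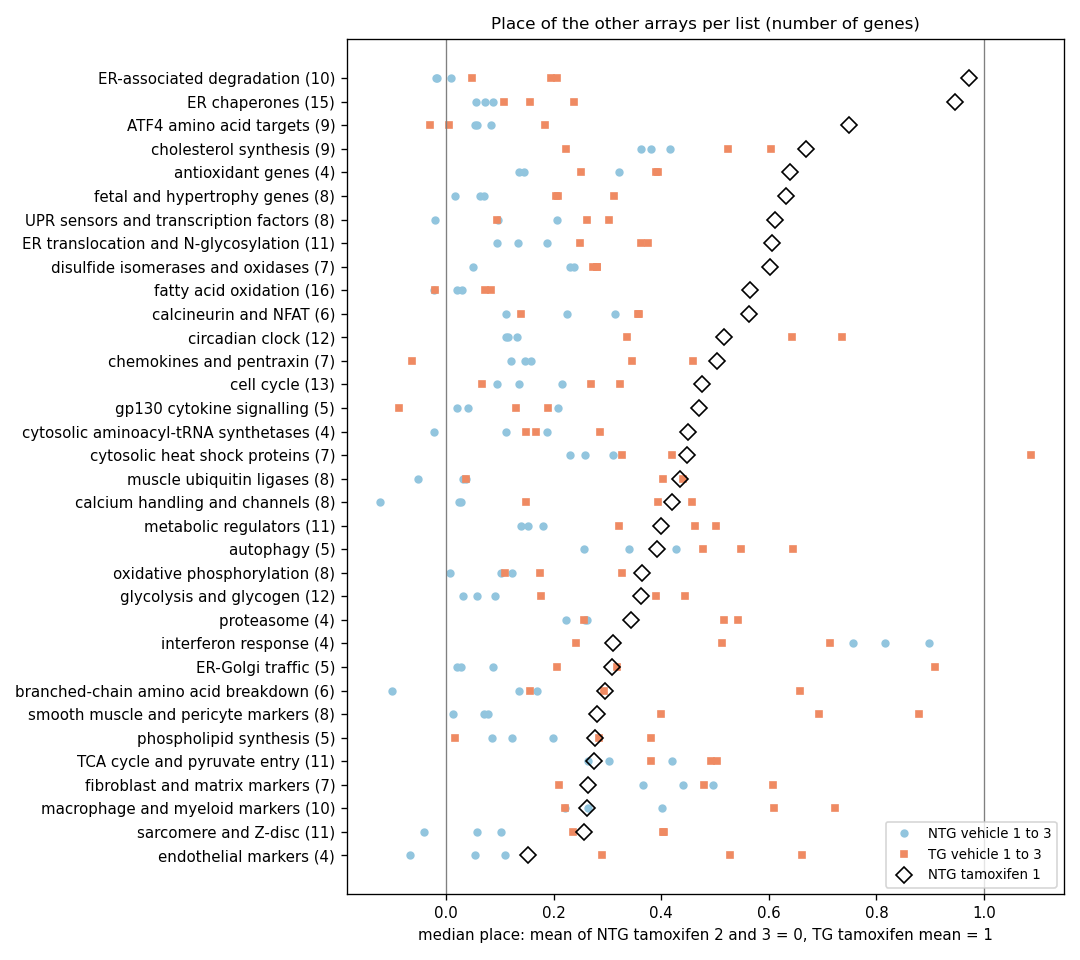
Median place of the array labelled NTG tamoxifen 1 (open diamond) and of the 6 vehicle arrays (circles non-transgenic, squares transgenic) for each list, with the number of genes called over 2-fold in the 11-array fit in brackets. On the horizontal axis 0 is the mean of NTG tamoxifen 2 and 3 and 1 the mean of TG tamoxifen. The diamond lies near 1 for ER-associated degradation (0.97) and ER chaperones (0.95) and near 0 for endothelial markers (0.15), while the vehicle arrays lie near 0 for the ER chaperones.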

How the data were processed

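Left ventricle RNA of 12 mice was hybridised to Affymetrix mouse expression arrays, 1 heart per array. The authors deposited 1 intensity per probe set and array on a linear scale. With 2% trimmed at both ends, each array had a mean of 2500.02, which shows that the values had been scaled before deposit. The summarisation software is not given in the sources used here. Precision is limited by how many arrays there are, 3 a group.

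Of 45101 probe sets, 34945 had 1 gene symbol, 932 several and 9160 none, and 64 were controls. Intensities plus 16 were quantile-normalised and put on the log2 scale. The probe set with the highest mean stood for a gene, and 11165 of 18193 genes whose mean passed an intensity of 670.3 were tested. limma 3.58.1 in R 4.3.3 (lmFit, eBayes) fitted 4 group means to all 12 arrays, and again to 11 arrays without the array labelled NTG tamoxifen 1, with Benjamini-Hochberg adjustment over all genes tested, two-sided, at 0.05. The scripts were tested on simulated data. Motif searches and plots used Python 3.11.15, numpy 2.4.6 and matplotlib 3.10.9.

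The 46 lists and the comparison itself were chosen with earlier results of these data known; of 959 entries 892 were on the array and 824 were tested. They are described by counts and medians, with no test. Named genes were Esr1, Atf6, Hspa5 and Rcan1, the 8 largest rises and falls in the 12-array fit with groups that do not overlap, the next 8 in the 11-array fit, and up to 3 per list with the smallest adjusted p; other genes were chosen after their values were seen. Alternatives were other scalings, offsets, filters, probe set rules, samples left out, regrouping of TG vehicle 3, a replicate block, a covariate for RNA quality, array weights and other settings of eBayes. Gene names and promoter windows of 300 bases were from RefSeq (GRCm38.p6); 204 symbols had no entry.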

Additional observations from a re-analysis of the deposited data

Results flagged for a closer look

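For 12 of the 20 genes examined, the difference between genotypes on tamoxifen was not the same as on vehicle, by the interaction term of the 12-array fit (limma, adjusted p from 0.00642 to 0.0412). The term was called for 1593 of all 11165 genes tested (14.3%) and for 56 of the 144 named genes. The 20 genes include those with the largest differences on tamoxifen, which are 1 part of the term, so their count is a description and not set against that share. The difference on tamoxifen minus that on vehicle was 5.26 in log2 units for Ccl2, 4.74 for Gadd45g and 4.40 for Ptx3. It was 4.28 for Chml, 5.61 for Neat1 and 4.37 for Zfp979, genes whose mean in non-transgenic vehicle hearts was near that of transgenic tamoxifen hearts (transgenic vehicle means 9.86, 13.53 and 10.29). Among the genes that fell it was -4.0 for Fn3k, -2.50 for Asb10, -2.55 for Oplah, -2.90 for Klf15, -2.36 for Flvcr2 and -3.74 for Mybpc2. The term was not called for the rest of the 20: Esr1, Atf6, Hspa5, Rcan1, Polr3k, Far1, Slc25a34 and Hhatl. That fit includes NTG tamoxifen 1, and a missing call does not show that the difference was the same on vehicle. Ccl2, Ptx3, Chml, Zfp979 and Flvcr2 passed the filter on low levels through the tamoxifen group in which they were high, as given above. Groups of 3 hearts are too small for a check of single outlying samples.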

How the results depend on the processing

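All 55 alternative counts of genes called stayed within 1.5 times the count reported. Leaving out 1 array at a time gave 3394 (without NTG tamoxifen 3) to 4785 genes in the 12-array fit and 3425 to 5164 in the 11-array fit. Grouping TG vehicle 3 as TG tamoxifen gave 3092 and 3260. Median centring gave 2553 higher and 1707 lower calls (59.9% higher) and, without NTG tamoxifen 1, 2667 and 1880 (58.7% against 48.8%). Same-numbered hearts of the 2 groups did not deviate together (r = 0.0426, -0.0145 and 0.0098), so no pairing by number was seen. With 3 hearts a group, and NTG tamoxifen 1 apart from its fellows, this check cannot exclude a pairing. The replicate block gave 4232 genes in the 12-array fit and 4283 in the 11-array fit.

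With a gene's probe sets averaged, the 12-array difference turned to 0.12 for Lman1, -0.094 for Lpl, 0.14 for Dnajc1, 0.092 for Ube2j1, 0.10 for Nfatc1, -0.15 for Cib1, -0.20 for Txn1, 0.44 for Mmut and -0.33 for Ctsl. The 11-array difference turned to -0.011 for Hadhb, -0.42 for Lpl, 0.017 for Dnajc1, 0.14 for Ube2j1, 0.038 for Nfatc1, -0.064 for Cib1, 0.005 for Bak1, -0.18 for Txn1, -0.23 for Sc5d, 0.48 for Mmut and -0.36 for Ctsl. The cause was not tested. Over all settings, named genes kept direction and call in 8219 of the 12-array and 7678 of the 11-array values, and lost the call in 860 and 531. Esr1 lost its 12-array call in 19 of 29 alternatives, Derl3 in 16, Sdf2l1 in 12, Pdia4 in 9, and Hspa5 and Rcan1 in 1 each; Derl3, Sdf2l1, Pdia4, Hspa5 and Rcan1 lost no 11-array call in 26. Genes under the intensity limit were not tested.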
